A study of Mus musculus with 4 samples.

Results

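The cells described here are the intestinal stem cells of mouse duodenal crypts, the cells that the authors' deposited per-cell tables name ISC. They were taken by that name and matched by library and barcode to the deposited counts, which gave 2061 ISC cells of 15234 kept cells. The neighbouring names used for comparison were SEC-PRO, the secretory progenitors, with 1798 cells, and ENTERO-PRO, the enterocyte progenitors, with 660 cells. The cells carried the Tomato reporter (TOM+), which Cre recombinase switches on from the R26RTom allele, and were sorted as living TOM+ crypt cells for 10x Genomics 3′ single-cell RNA sequencing.

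Each genotype had 2 libraries. The WT animals were Atoh1CreER-T2;R26RTom. The APC-KO animals are labelled Atoh1Cre;Apcfl/fl;R26RTom, while the design text names the inducible CreER-T2 allele for both genotypes. All animals, controls included, received 2 intraperitoneal doses of tamoxifen at 1 mg/mL, 24 h apart, and cells were harvested 12 h after the last dose. The Atoh1 promoter drives Cre in secretory-lineage cells, so the sort decided which stem cells entered the libraries. The labels do not tie a library to an animal, a sex, an age or a batch, and p-values over libraries therefore measure only the spread between these libraries, which may be technical.

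Crypt base stem cells divide throughout life and renew the intestinal epithelium. Wnt and R-spondin signals from the niche hold them in the stem state, and the receptor Lgr5 and the transcription factor Ascl2 are part of that response. Notch signalling, read out through the repressor Hes1, keeps the factor Atoh1 low and favours absorptive fate, whereas cells that escape it raise Atoh1 and its targets and become secretory. Apc is a scaffold of the complex that marks beta-catenin for destruction, and its loss switches Wnt target genes on without a ligand.

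The 4 libraries held 54230249 to 61032126 unique molecules (UMIs) each, counting every barcode. The replicates are called WT1, WT2, APC-KO1 and APC-KO2 here, and 4 values in a row follow this order, 3 values leave out APC-KO1. WT1 contributed 575 ISC cells with 3426986 UMIs and WT2 contributed 228 cells with 1409616 UMIs. APC-KO1 contributed 13 cells with 75796 UMIs and APC-KO2 contributed 1245 cells with 5985350 UMIs. APC-KO1 stands apart: its 356 kept cells hold 5.15% of its UMIs, against 37.6% to 50.3% in the other 3 libraries. In that ISC sum 3 UMIs correspond to 39.6 CPM (UMIs scaled to a common total), which is the limit that a count of 0 allows there, and its values are printed but were left out of ratios between names. Median UMIs per ISC cell were 6249, 6579.5, 6309 and 4515. The median mitochondrial share was 5.46%, 6.04%, 2.40% and 5.58% in the same order, and no kept cell passes 7%. At least 6% mitochondrial UMIs were found in 33.4%, 51.3% and 31.1% of ISC cells of the 3 larger libraries, against 14.2%, 18.1% and 12.3% of SEC-PRO cells. Between libraries, 20 barcodes recurred among kept cells, and 5 ISC cells carried one of them.

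The name was first set beside 5 stem cell markers, given as CPM of the UMIs summed over the ISC cells of a library. The authors named the cells from these same counts, so the marker levels describe the name and do not test it. Olfm4, a secreted glycoprotein of crypt base cells, had 2888, 3820, 2784 and 2349 CPM in the 4 libraries. Its mean over the 3 larger libraries was 3019 ± 744 CPM (SD, n = 3) in ISC and 290.4 ± 47.7 CPM in PANETH, the next name in the order, and these ranges did not overlap. A UMI of Olfm4 was found in 76.8%, 73.8% and 80.8% of ISC cells of the 3 larger libraries after each cell was thinned to 2000 UMIs. The same share was 20.8%, 10.3% and 20.5% in SEC-PRO and 11.1%, 12.0% and 16.1% in EC, a differentiated name that should lack the gene and serves as the background share. The ISC share lay above it in each library. Without thinning the ISC shares were 86.4%, 83.3% and 88.4%, and the median depth of EC cells was 3066, 3374 and 2413 UMIs.

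Olfm4 lies at chr14:79984081-80023139 (GRCm38, GENCODE vM21, plus strand). The 250 bases before its RefSeq start (GRCm38.p6, chr14:80000052-80000301, plus strand, inside that gene span) are shown because Olfm4 has the highest ratio of ISC over each of SEC-PRO, ENTERO-PRO and all other names. Capitals mark overlapping matches to the NF-kappaB consensus, ending 42 bases before the start, and the letters TGGGAA, the core bound by the Notch factor RBPJ, 12 to 7 bases before it.
Olfm4 promoter: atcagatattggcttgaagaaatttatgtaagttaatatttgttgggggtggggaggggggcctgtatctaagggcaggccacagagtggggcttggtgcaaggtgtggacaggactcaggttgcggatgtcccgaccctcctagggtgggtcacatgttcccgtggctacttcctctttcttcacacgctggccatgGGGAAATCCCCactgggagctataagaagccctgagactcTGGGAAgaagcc
The motifs were searched on both strands, after the sequence had been seen. TGGGAA occurs in 21.6% of 32851 RefSeq mouse promoters of this length and the NF-kappaB consensus in 7.25%. The TCF/LEF letters CTTTGAT occur in 3.21% and are not in this window. A match describes the letters only.

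Lgr5, the R-spondin receptor (chr10:115450311-115587780, minus strand), was a low transcript, with 42.0, 46.8, 13.2 (1 UMI) and 58.8 CPM. Its mean in ISC was 49.2 ± 8.65 CPM (SD, n = 3), followed by TUFT with 32.1 ± 14.3 CPM and PANETH with 31.2 ± 21.1 CPM. These spreads overlap, but within each of the 3 larger libraries ISC was the highest of these names. TUFT had 37.6, 15.9 and 42.9 CPM there and PANETH had 22.4, 15.9 and 55.3 CPM. In APC-KO1, with 1 UMI in ISC, both were higher. In SEC-PRO and ENTERO-PRO the means were 6.87 and 0.531 CPM. Thinned cells with a UMI made up 7.57%, 10.9% and 10.8% of ISC and 0.850%, 0% and 2.81% of EC. The 0 of 258 thinned EC cells has an exact upper bound of 1.42% in a 95% interval.

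Ascl2, the Wnt-responsive stem cell factor (chr7:142966829-142969264, minus strand), had 46.7, 73.8, 66.0 and 44.3 CPM in the 4 ISC sums. TUFT had the highest mean, 67.1 ± 11.5 CPM, and ISC the second, 54.9 ± 16.4 CPM (SD, n = 3). These spreads overlap, but TUFT was above ISC within each of the 4 libraries, with 64.9, 79.5, 114 (6 UMIs) and 56.8 CPM. Every other name had a mean of at most 6.96 CPM.

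Dmbt1, a secreted scavenger receptor protein of mucosal surfaces, had 1114, 1061, 1135 and 1466 CPM in the ISC sums. ENTERO-PRO was higher, with 1787 ± 258 CPM against 1214 ± 220 CPM in ISC (SD, n = 3), and the 2 ranges do not overlap. SEC-PRO followed with 149.7 ± 151.3 CPM. Dmbt1 therefore marks ISC and ENTERO-PRO together against the secretory names and does not mark ISC alone.

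Slc12a2, the basolateral sodium, potassium and chloride cotransporter, had 741, 880, 369 and 753 CPM in the ISC sums. Its mean was 792 ± 77.1 CPM in ISC, 450.1 ± 15.1 CPM in SEC-PRO and 59.7 ± 48.3 CPM in ENTERO-PRO (SD, n = 3). The 3 names did not overlap, and ENTERO-PRO lay furthest below ISC.

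**Figure D1:**
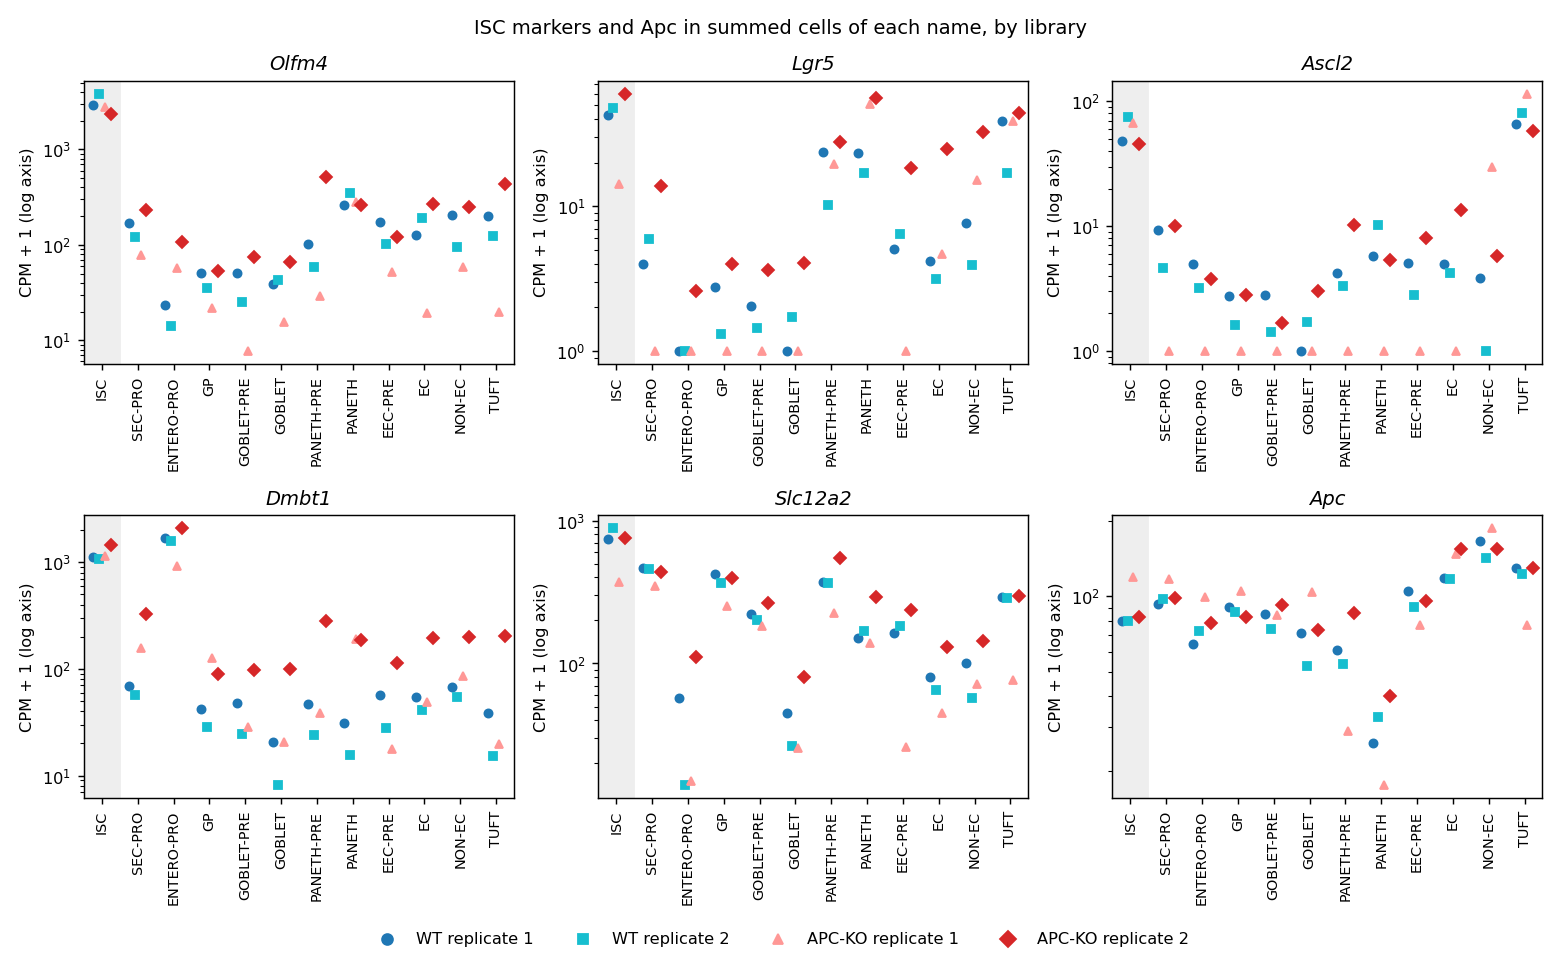
Each panel plots CPM + 1 on a log axis for 1 gene in the summed cells of each of the 12 names, with 1 point per library and ISC on a grey band. Olfm4 is highest in ISC in all 4 libraries, Dmbt1 is also high in ENTERO-PRO, Ascl2 in TUFT, and Apc is eighth of 12 in ISC.

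Markers of other cell types were present in the ISC sums at levels below those of free RNA, the RNA in barcodes with 1 to 50 UMIs. The 8 goblet markers summed to 9011, 4967, 3549 and 5458 CPM in the ISC sums and to 58490 to 64375 CPM in free RNA. The 10 Paneth markers summed to 4199, 4271, 581 and 2173 CPM in ISC and to 32100, 53862, 15037 and 27266 CPM in free RNA. Enterocyte markers summed to 2449, 1031, 3655 and 1456 CPM, endocrine markers to 547, 189, 66.0 and 249.8 CPM and tuft markers to 30.6, 17.7, 13.2 and 14.7 CPM. Immune and stromal markers were at most 4.96 and 0.709 CPM, and the stromal list was at 0 for all 7 genes in WT1 and APC-KO1.

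Separately, the thinned cells of 1 library were assigned to the nearest mean profile of the 12 names in another library. ISC cells of WT2 were nearest to the ISC profile of WT1 in 95.0% of 221 cells (exact binomial 95% interval 91.3% to 97.5%), and 87.9% of 555 cells in the reverse direction. Against the WT profiles, 98.3% and 98.4% of the 1212 ISC cells of APC-KO2 kept the name. In the opposite direction, 78.0% and 85.5% of the ISC cells of WT1 and WT2 were nearest to the ISC profile of APC-KO2. Of the 10 ISC cells of APC-KO1 deep enough to use, 7 were nearest to ISC and 30% to ENTERO-PRO. The border with ENTERO-PRO was less sharp in APC-KO2, where 31.4% and 34.4% of its ENTERO-PRO cells were nearest to the WT ISC profiles, against 6.25% of those of WT2 with the WT1 profiles and 7.83% of those of WT1 with the WT2 profiles. The authors named the cells from these same counts, so these shares and the ratios that follow are descriptions with no test.

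Against the secretory progenitors, ISC had higher Olfm4, Dmbt1, Nlrp6, Jaml and Otc, and lower Agr2, Selenom, Ccl9, Guca2a and Guca2b. A gene was counted as apart where the ratio of CPM + 10 was at least 2-fold in the same direction in each of the 3 larger libraries, among genes with a mean of at least 50 CPM on one side. Of 3513 genes, 70 were higher in ISC (1.99%) and 200 were lower (5.69%). The larger number lay on the secretory side. Ratios are given as means of the log2 ratios of the 3 libraries, on the scale of CPM + 10, which understates the difference of low genes.

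Olfm4 led the genes higher in ISC, with 169, 119 and 231 CPM in SEC-PRO, and a mean log2 ratio of 4.07 (lowest 3.29, highest 4.89). Dmbt1 had a mean log2 ratio of 3.33. Nlrp6, an inflammasome sensor of the gut epithelium, had 198, 278 and 227 CPM in ISC and 14.5, 13.0 and 33.3 CPM in SEC-PRO, a mean log2 ratio of 3.06. Mitochondrial enzymes that make citrulline were among the 10, namely Otc, ornithine transcarbamylase, with a log2 ratio of 2.91, and Cps1, carbamoyl phosphate synthetase, with 768, 843 and 632 CPM in ISC against 116, 109 and 169 CPM. The adhesion proteins Jaml and Mpzl2 had log2 ratios of 3.01 and 2.36, the membrane protein Tm4sf20 had 2.74 and the microsomal glutathione transferase Mgst1 had 2.46. Kcnq1ot1, a long antisense RNA within Kcnq1, had 175, 178 and 285 CPM in ISC against 17.8, 7.64 and 43.3 CPM in SEC-PRO, a log2 ratio of 2.87, and whether reads were counted by strand is not given in the sources used here. Kcnq1ot1 is not a mark of ISC alone, since TUFT had 297, 178 and 429 CPM.

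Agr2, the endoplasmic reticulum disulfide isomerase needed for mucin folding, was the gene furthest below SEC-PRO. It had 1143, 573 and 239 CPM in ISC and 11529, 12814 and 4897 CPM in SEC-PRO, a mean log2 ratio of -4.03. Lower too were the endoplasmic reticulum selenoprotein Selenom by a log2 ratio of -3.46, the disulfide isomerase Txndc5 by -2.92 and the membrane-bound factor Creb3l1 by -3.21. Guca2a and Guca2b, the gut peptides guanylin and uroguanylin, had log2 ratios of -3.38 and -3.35, and the mucus protein Fcgbp had -2.91. The chemokine Ccl9 had -3.41. The transcriptional regulators Cbfa2t3 and Spdef, the latter a driver of goblet fate, had -2.99 and -2.95.

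Against the enterocyte progenitors, ISC had higher Olfm4, Slc12a2 and Ifitm3 and lower Apoa1, Rbp2 and Fabp1. Of 3513 genes, 142 were higher in ISC (4.04%) and 227 were lower (6.46%), and without APC-KO2 the numbers were 258 and 275. Olfm4 again led, with 22.4, 13.0 and 107 CPM in ENTERO-PRO and a mean log2 ratio of 6.07, and Slc12a2 followed with 3.81. Ifitm3, an interferon-induced membrane protein, had 752, 589 and 720 CPM in ISC against 52.7, 34.7 and 98.4 CPM, a log2 ratio of 3.37. The remaining named genes included the linker histone Hist1h1b (3.10), the topoisomerase Top2a (3.08), the histone Hist1h2ap (2.70), the chromatin protein Cdca7 (2.69) and the histone chaperone Nap1l1 (2.66). The transcription factor Sox4 had 2.94 and Soat1, which esterifies cholesterol, had 2.68.

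Furthest below ENTERO-PRO was Apoa1, a lipoprotein component made by absorptive cells, with 14.6, 21.3 and 35.6 CPM in ISC and 1371, 1312 and 1708 CPM in ENTERO-PRO, a mean log2 ratio of -5.48. The retinol carrier Rbp2 had -5.41, the fatty acid carrier Fabp1 had -4.73, the lipoprotein component Apoa4 had -4.63 and the brush border disaccharidase Sis had -4.02. The lectin Reg1 had -4.86, the glutathione transferase Gsta1 had -4.22, the protease inhibitor Spink1 had -4.08, the lectin-like Clec2h had -3.88 and the sialyltransferase St3gal4 had -3.73. Of the genes that set ISC apart from SEC-PRO, Dmbt1, Otc and Nlrp6 were not apart from ENTERO-PRO, with log2 ratios of -0.56, -0.41 and -0.25, and Cps1 had 1.02 and missed the rule in 1 library. Jaml was apart from both, with 2.26 against ENTERO-PRO.

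**Figure D2:**
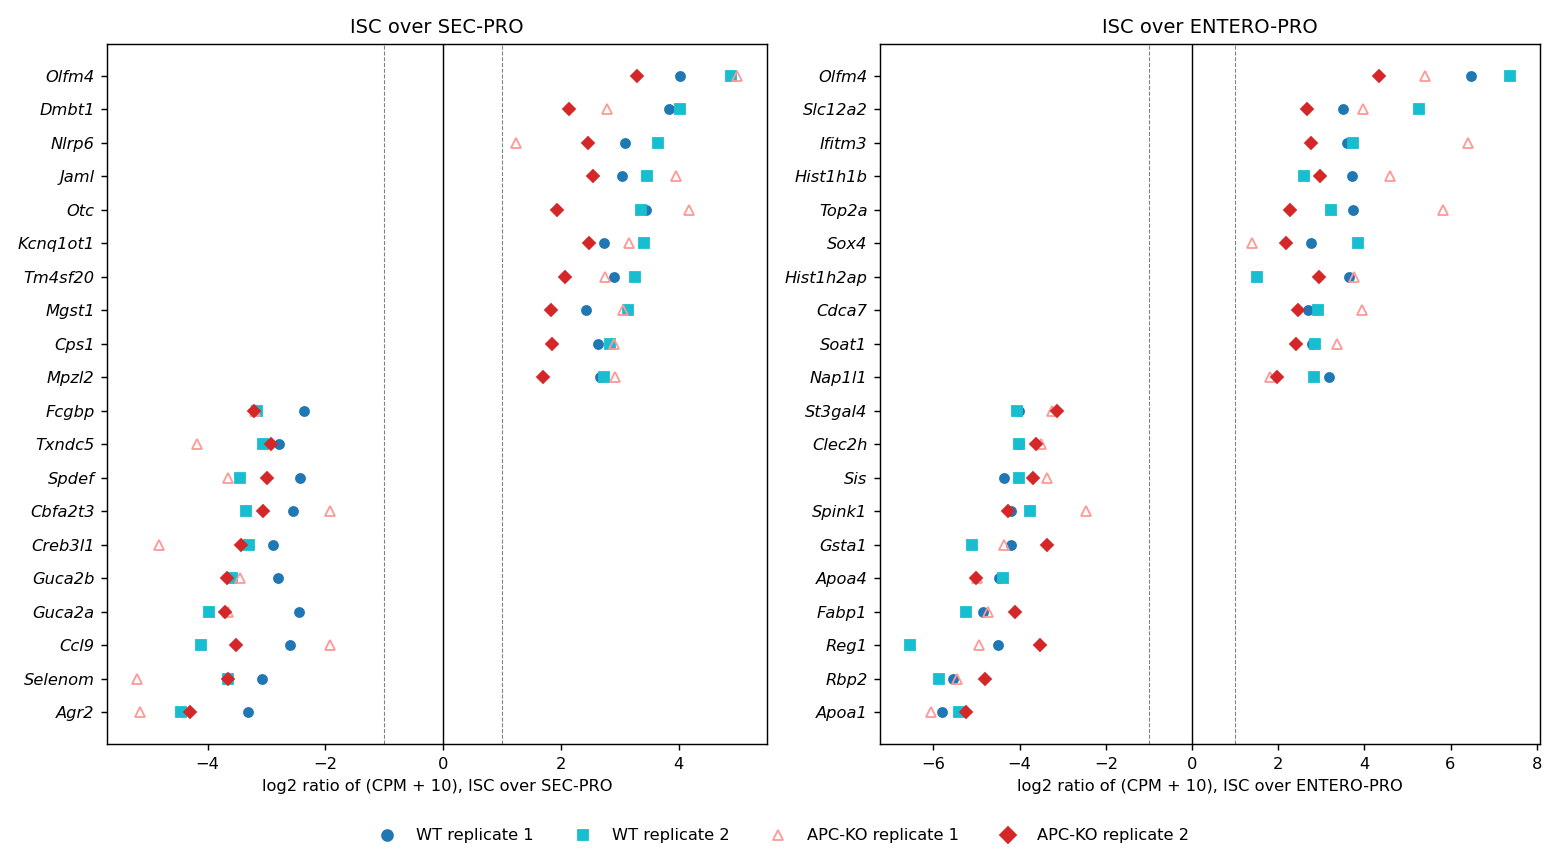
Points give the log2 ratio of CPM + 10, ISC over SEC-PRO (left) and over ENTERO-PRO (right), in each library for the 10 genes furthest up and the 10 furthest down, with dashed lines at 2-fold. The open triangles of APC-KO1 rest on 13 ISC cells and were not used to choose genes. Olfm4 is at the top of both panels, Agr2 at the bottom of the left and Apoa1 at the bottom of the right.

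Against all other kept cells together, 232 of 3601 genes were higher in ISC (6.44%) and 336 were lower (9.33%). Without APC-KO2 the numbers were 407 and 388, so that the larger side turned. Olfm4 had the highest mean log2 ratio, 4.47, followed by Jaml (3.35), Cps1 (3.11), Dmbt1 (2.97), Nlrp6 (2.72), Otc (2.67), Clca3b (2.64), Kcnq1ot1 (2.60), Cftr (2.58) and Ifitm3 (2.57). Clca3b, of the calcium-activated chloride channel regulator family, had 1011, 1214 and 1339 CPM in ISC. Cftr, the chloride channel of crypt cells, had 136, 149 and 169 CPM against 12.5, 9.24 and 34.9 CPM in the other cells. The lowest ratios belonged to the hormone ghrelin, Ghrl (-5.04), the goblet proteins Zg16, Clca1, Agr2, Fcgbp and Guca2a (-4.46, -4.24, -4.15, -4.05 and -4.02), the Paneth defensins Defa29 and Defa30 (-4.21 and -4.20), the granin Chgb (-4.09) and the ribonuclease Ang4 (-4.03).

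The stem signature, a list of 26 genes that holds 4 of the 5 markers, had 13 genes past the level filter. Of these, 6 were higher in ISC than in SEC-PRO and 12 than in ENTERO-PRO, none lower, beside the background shares given above. The 6 include the markers Olfm4 and Ascl2, and the others were Axin2, Cdca7, Cdk6 and Pdgfa. The 12 include Olfm4, Ascl2 and Slc12a2. The median log2 ratio of those 13 was 0.97 against SEC-PRO, where it was 0.01 over all genes past the filter, and 2.17 against ENTERO-PRO, where it was 0.02. Cdk6, a kinase of early cell cycle entry, had 108, 143 and 151 CPM in ISC, 31.6, 35.5 and 46.2 CPM in SEC-PRO and 18.4, 23.9 and 23.5 CPM in ENTERO-PRO. Smoc2, a secreted matrix protein, was apart from ENTERO-PRO only, with log2 ratios of 0.45 and 1.84. Sox9, a factor of crypt base and Paneth cells, had 159, 165 and 118 CPM in ISC and 173, 186 and 138 CPM in SEC-PRO, with no difference of 2-fold there, and a log2 ratio of 1.73 against ENTERO-PRO.

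Among Wnt targets, Axin2, the feedback target of beta-catenin, had 127, 121 and 174 CPM in ISC, 57.2, 44.1 and 69.9 CPM in SEC-PRO and 9.22, 15.2 and 19.1 CPM in ENTERO-PRO. Of 23 Wnt targets and feedback genes 8 passed the filter, with 3 higher than SEC-PRO (Ascl2, Axin2 and Cd44) and 6 higher than ENTERO-PRO. The ubiquitin ligase Rnf43 had log2 ratios of 0.97 and 1.31. In contrast, of 8 measured Wnt receptors and members of the destruction complex none was apart from either progenitor, with medians of -0.06 and 0.08.

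Notch genes separated ISC from the secretory progenitors. Hes1, the repressor that Notch induces, had 98.9, 128 and 193 CPM in ISC against 35.5, 35.5 and 70.2 CPM in SEC-PRO, a mean log2 ratio of 1.40. Atoh1, the factor whose promoter drives Cre in these animals, had 19.6, 9.22 and 6.85 CPM in ISC and 146, 181 and 94.4 CPM in SEC-PRO. The ligands Dll1 and Dll4 were lower in ISC, with log2 ratios of -2.42 and -1.76. Thinned ISC cells with an Atoh1 UMI made up 3.78%, 1.81% and 1.40% of the 3 larger libraries, against 2.27%, 0.775% and 3.21% of EC cells, so the ISC share lies near the background share. In SEC-PRO the shares were 24.0%, 25.5% and 16.7%. Of 13 secretory factors, 9 passed the filter and 7 were lower than SEC-PRO.

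MHC class II genes, which present antigen, set ISC apart from SEC-PRO but not from ENTERO-PRO. Cd74, the class II chaperone, had 1051, 1194 and 1262 CPM in ISC, 377, 473 and 628 CPM in SEC-PRO and 1080, 1301 and 1133 CPM in ENTERO-PRO. H2-Eb1, a class II chain, had log2 ratios of 1.55 and 0.46. Of 7 genes 5 passed the filter against SEC-PRO, with 3 higher in ISC and a median of 1.28. Against ENTERO-PRO 6 passed and none was apart, with a median of -0.02.

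ISC and SEC-PRO had cell cycle genes at like levels, and ENTERO-PRO had them lower. The 30 S phase genes made up 0.221%, 0.241% and 0.223% of ISC UMIs in the 3 larger libraries, 0.183%, 0.225% and 0.198% of SEC-PRO UMIs and 0.0485%, 0.0532% and 0.0818% of ENTERO-PRO UMIs. The 30 G2 and M phase genes made up 0.436%, 0.307% and 0.509% in ISC, 0.569%, 0.396% and 0.660% in SEC-PRO and 0.0939%, 0.102% and 0.238% in ENTERO-PRO. In each of these libraries the S phase share was higher in ISC than in SEC-PRO and the G2 and M phase share was lower.

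Among single genes the difference to SEC-PRO was small. No S phase or G2 and M phase gene was 2-fold apart from SEC-PRO, of 21 and 22 past the filter, and 21 of the 22 G2 and M phase genes had a mean ratio below 1. Mki67, the proliferation antigen, had 432, 275 and 472 CPM in ISC and 632, 409 and 640 CPM in SEC-PRO. Against ENTERO-PRO, 14 of 20 S phase genes and 11 of 20 G2 and M phase genes were higher in ISC, among them the replication helicase subunit Mcm6 with 124, 144 and 143 CPM against 19.8, 10.9 and 47.0 CPM. The cell cycle inhibitors Cdkn1a and Cdkn2b were lower in ISC than in ENTERO-PRO, with log2 ratios of -1.98 and -2.83.

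Cells with at least 3 UMIs of the S phase list after thinning made up 63.6%, 71.0% and 65.4% of ISC, 45.1%, 50.5% and 54.9% of SEC-PRO and 8.70%, 9.38% and 20.6% of ENTERO-PRO. For the G2 and M phase list the shares were 73.7%, 60.2% and 67.1% of ISC and 78.5%, 65.0% and 80.2% of SEC-PRO. Without thinning, 92.3%, 92.1% and 88.8% of ISC cells had at least 3 S phase UMIs. These shares count UMIs of the lists and are no calls of a phase.

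**Figure D3:**
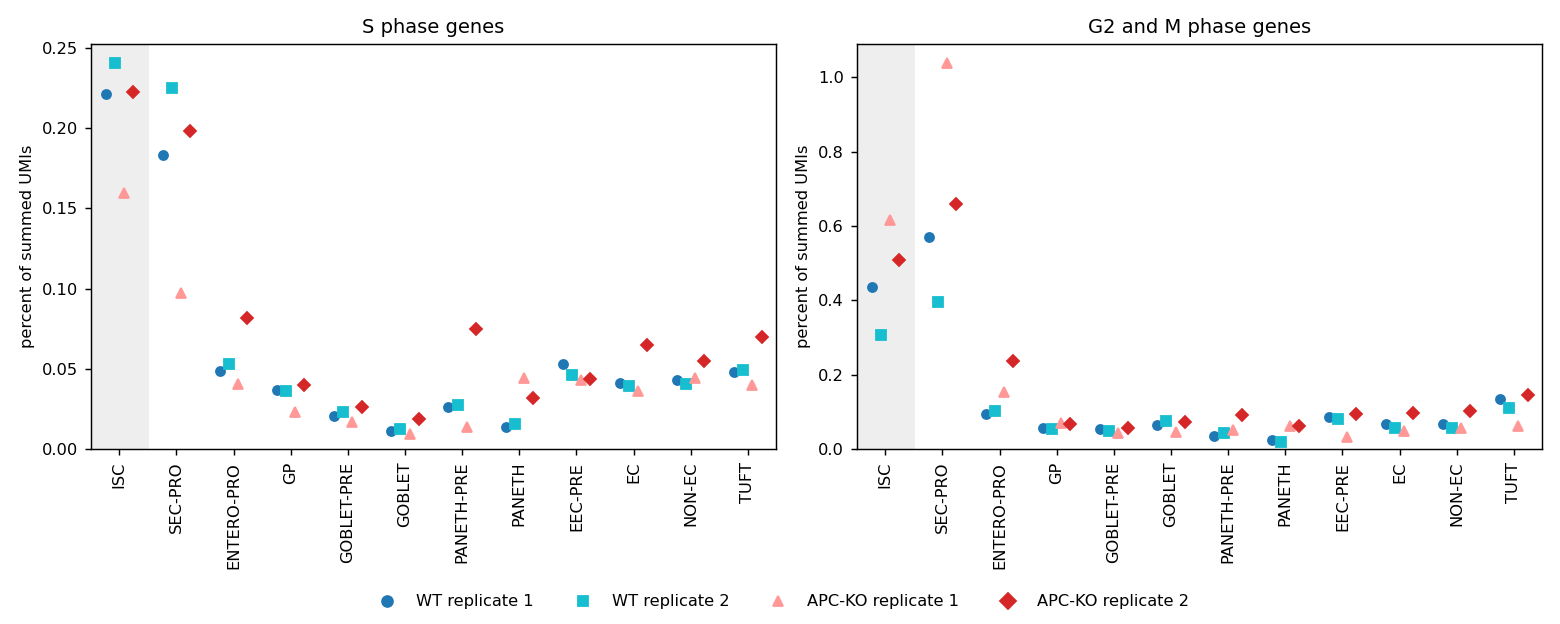
Points give the percent of summed UMIs in 30 S phase genes (left) and 30 G2 and M phase genes (right) for each name and library, with ISC on a grey band. ISC and SEC-PRO stand above the other 10 names in both panels in all 4 libraries. Their lowest S phase value, 0.0972%, belongs to the 5 SEC-PRO cells of APC-KO1.

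The share of kept cells named ISC did not separate the genotypes. It was 11.9% in WT1 (exact binomial 95% interval 11.04% to 12.9%), 5.97% in WT2 (5.24% to 6.77%), 3.65% in APC-KO1 (1.96% to 6.16%) and 19.9% in APC-KO2 (19.0% to 21.0%). Intervals cover counting error only. The APC-KO libraries held both the lowest and the highest share, so the groups overlap. The means were 8.96 ± 4.23% in WT and 11.8 ± 11.5% in APC-KO (SD, n = 2), a difference of 2.84 percentage points with an exact two-sided permutation p of 1, where 2 libraries against 2 cannot go below 0.3333. The difference was -0.147 without WT2, 10.99 without APC-KO1 and -5.30 without APC-KO2. A larger population and a larger sorted fraction cannot be told apart in these counts. As a share of ISC, SEC-PRO and ENTERO-PRO cells together, ISC made up 46.6%, 33.5%, 44.8% and 48.3%.

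The deleted gene was examined first between genotypes. Apc had 78.8, 78.7, 119 (9 UMIs) and 81.9 CPM in the ISC sums. The edgeR quasi-likelihood fit over these 4 sums gave 0.16 on the log2 scale, APC-KO over WT, with an SE of 0.21 and an adjusted p of 0.844. The labels do not say which exons the floxed allele loses, and 3′ reads can come from outside them, so this value checks neither the deletion nor the labels. Across names Apc was eighth of 12 in ISC, with 79.8 ± 1.79 CPM (SD, n = 3), between 153.2 CPM in NON-EC and 32.0 CPM in PANETH.

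None of the 5 stem cell markers passed the test between genotypes. The log2 fold changes in edgeR were -0.37 for Olfm4 (SE 0.29, adjusted p = 0.666), 0.43 for Lgr5 (SE 0.23, adjusted p = 0.441), -0.28 for Ascl2 (adjusted p = 0.688), 0.31 for Dmbt1 (adjusted p = 0.751) and -0.38 for Slc12a2 (adjusted p = 0.656). Of the 25 stem signature genes tested none passed with all 4 libraries. Their median log2 fold change was 0.18, against -0.01 over all genes tested. The median of the list was 0.11 without APC-KO1 and -0.53 without APC-KO2. The lack of calls does not show that the genotypes were alike, since the spread between 2 libraries of a genotype is wide.

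In the fit over all genes of the ISC sums, 350 of 9792 genes passed an adjusted p of 0.05 in edgeR (3.57%), 224 higher in APC-KO (2.29%) and 126 lower (1.29%). The groups did not overlap for 226 of the 350, against 38.2% of all genes tested. The count depended on single libraries. Leaving out WT1 gave 70 genes, leaving out WT2 gave 29 and leaving out APC-KO2 gave 56. Leaving out APC-KO1 gave 786 of 10724 (7.33%), which hold 347 of the 350. DESeq2's Wald test called 16 genes and left the adjusted p undefined for 9302 of the 9792, so most genes that it did not call were not assessed. What follows describes these 4 libraries accordingly. The genes named next are the 10 furthest up and the 10 furthest down among called genes with a mean of at least 20 CPM and no overlap between the groups.

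Defa29, a Paneth cell alpha-defensin, had 12.5, 10.6, 39.6 and 103.9 CPM in the ISC sums and rose by 3.11 on the log2 scale in edgeR, with an SE of 0.26 and an adjusted p of 9.17e-26. Both APC-KO values exceeded both WT values. In free RNA Defa29 had 316, 454, 589.5 and 1146 CPM, so it was higher there in APC-KO too, and its part in the ISC value was not tested. Defensin genes are near-identical copies, and reads can be split among them in counting. Rpgrip1, a protein of the ciliary transition zone, had 13.7, 5.68, 52.8 and 46.5 CPM and rose by 2.13. Rps29, of the small ribosomal subunit, had 2889, 1783, 4182 and 10375 CPM and rose by 1.69 (SE 0.29, edgeR adjusted p = 4.09e-06), and in free RNA it had 2155, 1675, 2114 and 6414 CPM. The histones Hist2h2aa1, Hist1h4h, Hist1h2bj, Hist1h2ak, Hist1h2bb, Hist1h3c and Hist1h3e rose by 2.42, 1.87, 1.68, 1.68, 1.67, 1.67 and 1.54. Of these 10 genes, 7 rest on at most 4 UMIs in APC-KO1.

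Sqor, the mitochondrial sulfide quinone oxidoreductase, fell by 2.42 on the log2 scale (SE 0.35, edgeR adjusted p = 5.34e-09), with 27.1, 38.3, 26.4 (2 UMIs) and 5.18 CPM, so that APC-KO2 alone was clearly low. Cebpb, a stress-responsive transcription factor, had 57.5, 80.2, 13.2 and 18.2 CPM and fell by 1.81. Mtap, of methionine salvage, fell by 1.74, Qsox1, a sulfhydryl oxidase of the secretory pathway, by 1.65 and Bst2, the interferon-induced membrane protein tetherin, by 1.65. Mtap and Bst2 were at 0 in APC-KO1, which allows up to 39.6 CPM, and Cebpb and Qsox1 had 1 UMI there. The other 5 belong to Paneth or goblet cells. Itln1, the lectin intelectin, had 500.4, 612, 66.0 and 172 CPM and fell by 1.85 (SE 0.30, edgeR adjusted p = 6.78e-07). Agr2 had 1143, 573, 237 and 239 CPM and fell by 1.82. The pentraxin Mptx2, the defensin Defa30 and the ribonuclease Ang4 had log2 fold changes of -2.25, -1.64 and -1.63. In APC-KO1, Mptx2 was at 0 as well and Ang4 had 1 UMI.

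Of these 20 named genes, leaving out WT1, WT2, APC-KO1 and APC-KO2 in turn cost 3, 16, 0 and 17 their call. Itln1 kept it in all 4 of these fits, with log2 fold changes of -2.03, -1.81, -1.62 and -3.11 in that order. With the free RNA profile of each library subtracted at 5% of each sum, edgeR called 257 genes, of which 250 were among the 350. All 20 named genes were still called. The 5% was a set share, not one estimated from these cells. For Defa29 it takes away more than either WT sum holds. For Itln1, Agr2 and Ang4 it takes away more than the APC-KO1 sum holds, and for Defa30 nearly all of it. The kept calls of these genes therefore cannot decide on free RNA.

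**Figure D4:**
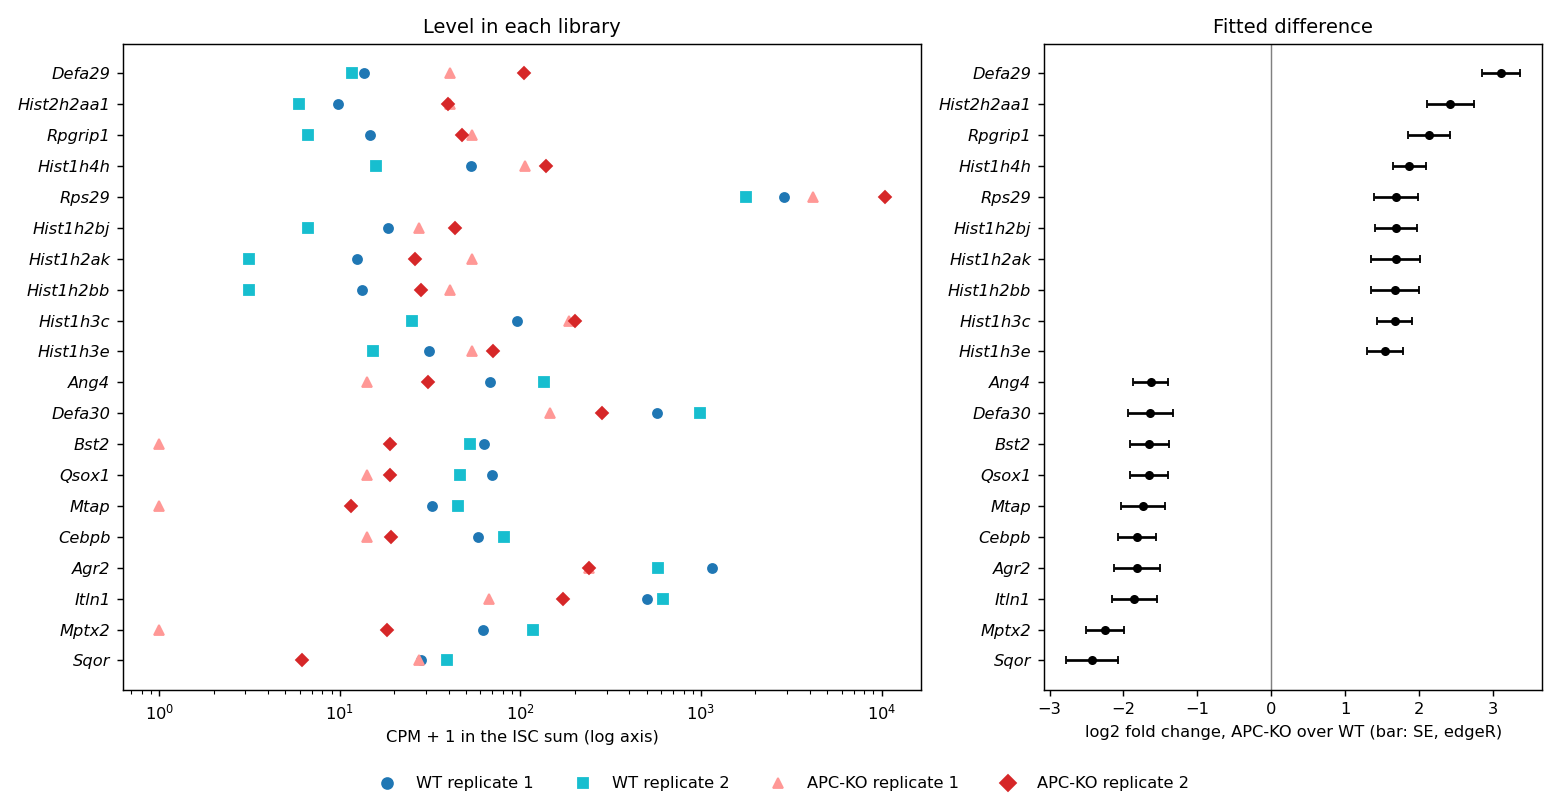
The left panel plots CPM + 1 on a log axis in the ISC sum of each library for the 20 named genes, and the right panel their log2 fold change from edgeR, APC-KO over WT, with bars of 1 SE. In every row both APC-KO points lie on one side of both WT points. For Sqor, APC-KO1 lies beside WT1.

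Paneth markers were the list with the most calls in 1 direction among the cell type markers. Of 9 tested, 7 fell and none rose, beside 1.29% and 2.29% of all genes, with a median log2 fold change of -1.63. In thinned cells 4 of 7 fell, and DESeq2's Wald test called 2. Lyz1, lysozyme, had 363, 344, 13.2 (1 UMI) and 133 CPM and fell by 1.59. The metalloproteinase Mmp7 had 145, 93.6, 13.2 (1 UMI) and 67.0 CPM and fell by 0.88. With WT1, WT2, APC-KO1 and APC-KO2 left out in turn, 4, 3, 8 and 6 of the list fell, and Lyz1 and Itln1 did so in all 4 fits. Both were lower in the free RNA of APC-KO as well, where Lyz1 had 1880, 3695, 739 and 1490 CPM and Itln1 had 3301, 7327, 1686 and 2301 CPM. The subtraction given above takes away more of both genes than the APC-KO1 sum holds. It cannot decide on the part of free RNA in these falls, which was not tested otherwise.

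Alpha-defensins taken by symbol, a class added after the values had been seen, were called in both directions, with 2 of 11 higher and 6 lower. Over all genes tested 2.29% were higher and 1.29% lower. Defa35 had 0, 1.42, 13.2 (1 UMI) and 46.8 CPM in the ISC sums and 54.2, 59.3, 93.4 and 567 CPM in free RNA. Defa36 had 35.6, 13.5, 13.2 (1 UMI) and 0 CPM, and 336, 246, 193 and 74.8 CPM in free RNA. For both, the direction in the ISC sums was that in free RNA. With APC-KO2 left out, no defensin rose and 3 fell. In thinned cells 1 of 7 rose and 3 fell, and DESeq2's Wald test called 1, lower.

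Among goblet markers Agr2 alone of 8 passed, lower, beside 1.29% of all genes, and the median was -0.54. With WT1 left out none passed and the median was -0.26, where Agr2 had -1.20 (edgeR adjusted p = 0.452). With free RNA subtracted 5 of 7 goblet markers were lower, with a median of -1.15. The set 5% takes away most of the goblet sum of APC-KO1, which was 3549 CPM in ISC against 64375 CPM in free RNA. The larger number of calls can therefore come from the subtraction itself, which was not tested. Of 8 endocrine markers 2 fell, beside 1.29% of all genes, the hormones Tac1 and Cck by 2.18 and 1.38. Cck was called only with all 4 libraries or with APC-KO1 left out and had 0.08 without WT1, and Tac1 was not called without WT2 or without APC-KO2. The median of the endocrine list was -0.52, and 0.99 without WT1. Of 11 enterocyte markers 3 rose, beside 2.29% of all genes, namely Fabp1, Apoa1 and Apoa4 by 0.86, 1.12 and 1.59. Fabp1 had 87.0, 73.1, 251 (19 UMIs) and 126 CPM in the ISC sums and 614, 535, 2493 and 673 CPM in free RNA. None of these 3 passed without WT1 or without WT2, and Fabp1 was the only one of them to pass without APC-KO2. With free RNA subtracted 1 enterocyte marker was called higher. The median of the list was 0.50, and -0.07 without APC-KO1, so its sign rests on that library. The lectin Reg3b, with 1036, 95.1, 1623 and 407 CPM, did not pass, and its genotypes overlapped.

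Some genes of mitosis rose in APC-KO. Of 30 G2 and M phase genes 6 rose and none fell, beside 2.29% and 1.29% of all genes. Of these 30, 27 had a log2 fold change above 0, with a median of 0.50. Nusap1, a spindle protein, had 73.2, 36.9, 158 and 155 CPM and rose by 1.47 (SE 0.22, edgeR adjusted p = 2.85e-08). Top2a had 368, 207, 554 and 541 CPM and rose by 0.94, and the kinase Aurka rose by 1.05. Tacc3 and Ckap2, both of the spindle, rose by 1.06 and 1.05, and the ubiquitin carrier Ube2c rose by 0.84. With WT1, WT2, APC-KO1 and APC-KO2 left out in turn, the number that rose was 2, 0, 9 and 1. It was 1 in thinned cells, with a median of 0.27, 1 with the replicate block and 0 with DESeq2's Wald test. WT2 had the lowest G2 and M phase share of the 4 ISC sums, 0.307%. Of 30 S phase genes none rose, and Pcna, the replication clamp, and Tipin, a replication fork protein, fell by 0.92 and 0.78. Both calls were lost when WT1, WT2 or APC-KO2 was left out, and Tipin turned to 0.30 without APC-KO2. Tipin had 68.9, 78.0, 92.4 and 38.4 CPM, so APC-KO1 lay above both WT libraries.

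Histone genes taken by symbol were also added after the values had been seen. Of 39 tested 23 were higher and 1 lower, beside 2.29% and 1.29% of all genes, with a median of 1.13. Their sum was 2293, 1132, 4908 and 3091 CPM, and 1153, 968, 1612 and 1614 CPM in free RNA. Leaving out WT1, WT2, APC-KO1 and APC-KO2 in turn left 17, 1, 26 and 3 higher. In thinned cells 10 of 29 were higher. DESeq2's Wald test, which left most adjusted p-values over all genes undefined, called none. Hist1h2ap had 263, 49.7, 1834 (139 UMIs) and 256 CPM, with a log2 fold change of 2.48 that was 0.70 without APC-KO1, and it passed in all 4 of these fits. In free RNA Hist1h2ap was highest in the same library, with 130.1, 46.7, 725 and 111 CPM. Hist1h2bc was the 1 member that fell, by 1.18. Histone genes are near-identical copies too, and their transcripts largely lack the poly(A) tail that 3′ libraries prime from.

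Ribosomal protein genes were taken by symbol after the values had been seen. Of 76 tested 12 were higher, beside 2.29% of all genes, and none lower, with a median of 0.29. Rpl38 had 1569, 969, 2401 and 4598 CPM and Rps28 had 1016, 672, 805 and 3172 CPM. None of the 12 passed without WT2, 6 passed without APC-KO2 and 4 in thinned cells. Both were also highest in the free RNA of APC-KO2, with 3362 and 1698 CPM.

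The signalling lists had 0 or 1 member called each, beside 3.57% of all genes. Of 15 Wnt targets and feedback genes, Myc, a growth-promoting factor, fell by 1.01 (56.3, 66.0, 0 and 29.4 CPM) and none rose, with a median of -0.02. Of 13 Wnt receptors and members of the destruction complex none passed. Of 11 Notch genes Rbpj, the DNA-binding factor of the pathway, rose by 0.75. Of 12 secretory factors Creb3l1 fell by 1.18, and 1 had a log2 fold change above 0. Hopx, a marker of slowly cycling crypt cells, fell by 0.94 and was the 1 of 8 reserve and regenerative genes to pass. Myc, Rbpj, Creb3l1 and Hopx passed without APC-KO1 but not with any one of the other 3 libraries left out, and Rbpj turned to -1.38 without APC-KO2. Without APC-KO1, 2 of 11 Notch genes were higher and 2 lower, and 4 of 13 secretory factors were lower. None of 6 BMP response genes, 6 EGF receptor genes, 12 genes of fatty acid oxidation and ketogenesis and 7 MHC class II genes passed, and all 7 of the last had log2 fold changes above 0.

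**Figure D5:**
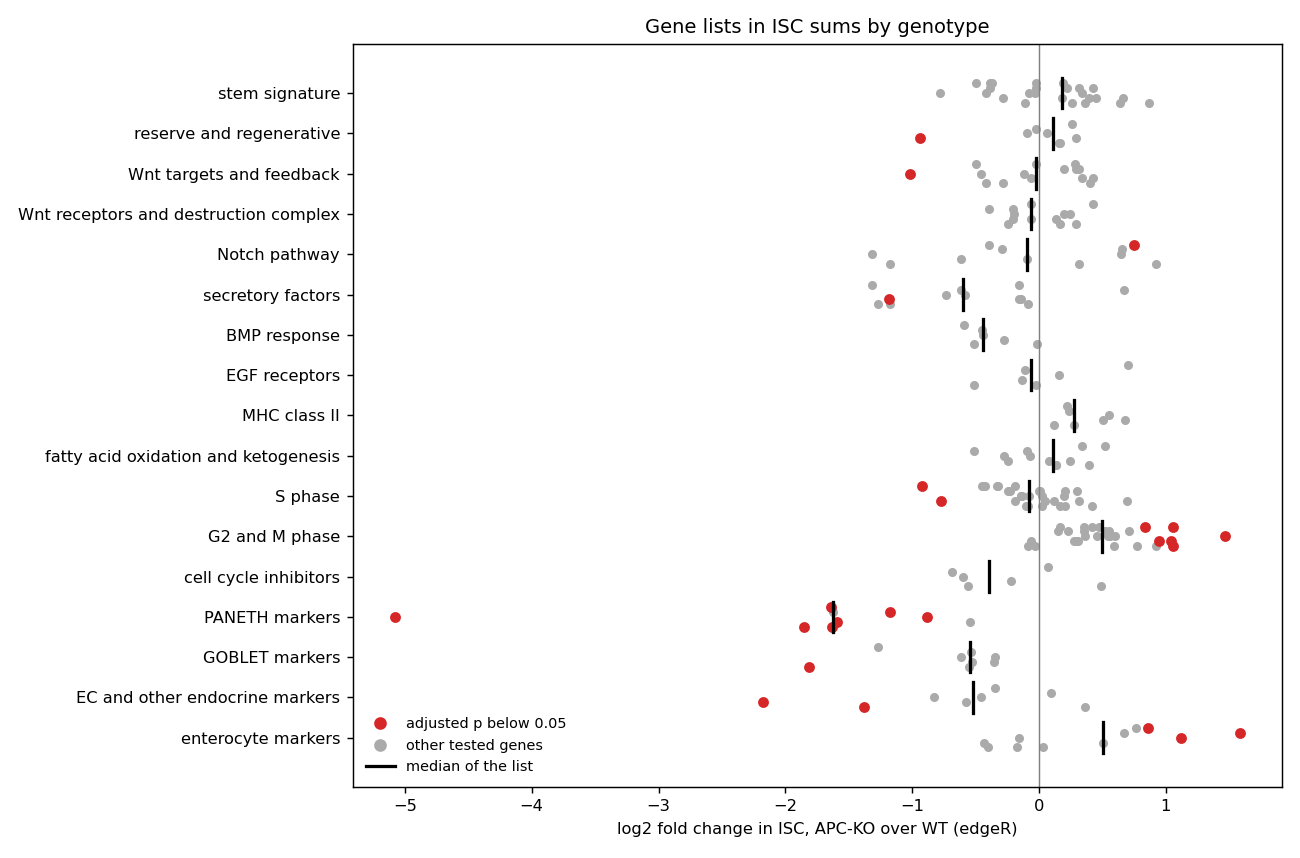
Each row shows the tested genes of a list in the ISC sums by their log2 fold change from edgeR, APC-KO over WT, in red where the adjusted p is below 0.05, with the median as a bar. Paneth markers lie below 0 with 7 of 9 in red and G2 and M phase genes lie mostly above 0 with 6 of 30 in red. The stem signature spreads around 0 with none in red. Over all genes tested 3.57% passed.

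Whether the genotype difference was the same in ISC as in SEC-PRO was tested as an interaction in edgeR with the library as a block. Of 10433 genes 38 passed (0.364%), with 4 where the difference was higher in ISC and 34 where it was lower. Dmbt1 had 68.7, 56.2, 156 (4 UMIs) and 324 CPM in SEC-PRO, while in ISC it had 1114, 1061, 1135 and 1466 CPM. Its ratio of ISC over SEC-PRO was therefore smaller in APC-KO, by 1.94 on the log2 scale (SE 0.22, adjusted p = 9.45e-15 in edgeR). The high value of APC-KO2 was not particular to SEC-PRO. EC had 53.5, 40.6, 47.6 and 195 CPM and TUFT had 37.6, 14.1, 18.9 (1 UMI) and 203 CPM. In EC and TUFT, APC-KO1 lay between the WT libraries, so APC-KO2 alone was high. GP and PANETH were highest in APC-KO1. Free RNA had 676, 550, 456 and 978 CPM of Dmbt1, and its part was not tested. Nlrp6 and Tm4sf20, which like Dmbt1 were high in ISC, differed by -1.34 and -1.15.

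For Itln1 and Lyz1 the lower values lay in the ISC sums. Itln1 had 665, 615, 1283 and 673 CPM in SEC-PRO against 500.4, 612, 66.0 and 172 CPM in ISC, an interaction of -1.90, and Lyz1 differed by -1.28. Gkn3, a gastrokine of crypt base cells, was the 1 named gene with a higher difference in ISC, by 1.47, with 41.1, 58.9, 106 (8 UMIs) and 49.5 CPM in ISC and 19.1, 16.6, 0 and 6.603 CPM in SEC-PRO. The 5 SEC-PRO cells and 13 ISC cells of APC-KO1 enter this fit. In edgeR no gene passed with WT1 or with WT2 left out, where 102 and 119 genes had an unadjusted p under 0.05. With APC-KO1 left out 50 passed, and with APC-KO2 left out 40 passed, of which 3 were among the 38. DESeq2's Wald test called 1 gene.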

How the data were processed

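The authors deposited unfiltered 10x gene by barcode matrices of UMI counts (6794880 barcodes, 31053 genes) and per-cell tables with counts of UMIs and genes, the mitochondrial percent and other values, namely library and cell type names. Cell Ranger 3.0.2, STAR and mm10 are listed per the submitters' processing notes. How cells were filtered, named and cleared of doublets is not given in the sources used here, and no doublet caller was run. The kept cells have 901 to 2999 genes and under 7% mitochondrial UMIs per the deposited tables. The tabulated UMI totals differ from the matrices by at most 17.

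UMIs were summed per library and name. Genotypes were compared with edgeR 4.0.16 (quasi-likelihood test, TMM, filterByExpr, Benjamini-Hochberg at 0.05) under R 4.3.3, and DESeq2 1.42.0 as an alternative. SEs are the log2 fold change over the square root of F. Names were compared by log2 ratios of CPM + 10 within libraries with at least 20 cells of both names. Shares of cells used cells thinned to 2000 UMIs (Python 3.11.15, numpy 2.4.6, scipy 1.17.1, pandas 2.3.3) and left out 20, 7, 3 and 33 shallower ISC cells. On simulated counts with log2 changes of 2, the genotype fit called 180 of 193 changed genes over 9445 genes, and the interaction 164 of 192 over 10074. Unchanged genes called numbered 7 and 1. These counts were drawn from the dispersions that edgeR fitted and a common mean profile. They check the fit itself and cannot show how far the calls depend on single libraries. Positions are from GENCODE vM21, which holds 99.62% of the gene IDs.

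The named genes are Apc, the 5 markers, per comparison of names the 10 with the highest and the 10 with the lowest mean ratio among genes apart, per edgeR fit the 10 highest and 10 lowest called genes with a mean of at least 20 CPM and no overlap between groups, model symbols left out, and members of the gene lists. Members and lists were chosen with earlier results of these data known. Precision follows the ISC sums: 3 UMIs correspond to 0.875, 2.13, 39.6 and 0.501 CPM in WT1, WT2, APC-KO1 and APC-KO2. Intervals and floors cover counting error only. Alternatives were other scaling, no filter, deeper or thinned cells, free RNA subtraction, a replicate block and leaving out each library.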

Additional observations from a re-analysis of the deposited data

Results flagged for a closer look

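Genes whose genotype difference in ISC differed from that in SEC-PRO (edgeR interaction, adjusted p below 0.05) are listed here with the log2 difference, ISC minus SEC-PRO. It was 1.47 for Gkn3 (adjusted p = 0.0285 in edgeR). It was -2.22 for Sqor, which had 31.9, 29.2, 38.9 and 24.5 CPM in SEC-PRO. It was -2.01 for Nr5a2, a nuclear receptor of the gut epithelium, and -1.84 for the growth factor binding protein Fgfbp1. Both reversed without APC-KO2, to 4.498 and 4.51, and Nr5a2 had 9 and 6 UMIs in SEC-PRO of the WT libraries. For Dmbt1, Nlrp6 and Tm4sf20, all higher in ISC than in SEC-PRO, it was -1.94, -1.34 and -1.15. For the Paneth products Defa24, Itln1, Defa17 and Lyz1 it was -1.91, -1.90, -1.33 and -1.28. With WT1, WT2, APC-KO1 and APC-KO2 left out in turn, 11, 11, 1 and 8 of these 11 lost the call, and the cause was not tested.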

How the results depend on the processing

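The number of genes called between genotypes in ISC was 350. It was 377 with DESeq2 size factors, 350 without a filter on low counts (298 of them shared) and 336 in cells of at least 2000 UMIs, but 119 in thinned cells and 16 with DESeq2's Wald test, where 9302 adjusted p-values were undefined. Leaving out 1 library gave 29 to 786. Without APC-KO2 the median of all genes moved from -0.01 to -0.32. The interaction with SEC-PRO gave 38 genes, 16 in thinned cells, 70 after free RNA subtraction, 1 with DESeq2, and 0 to 50 without 1 library. With 1 library left out the interaction ranged from -2.05 to 4.498 for Nr5a2 and from -2.16 to 4.51 for Fgfbp1, reversed without APC-KO2 in both. Genes apart from SEC-PRO, ENTERO-PRO and all other names numbered 270, 369 and 568 at a pseudocount of 10 CPM and 124, 152 and 236 at 50 CPM, the larger pseudocount shrinking low ratios. The difference in ISC share ranged from -5.30 to 10.99 percentage points without 1 library, with a reversed sign at -5.30 and -0.147. Where not stated, the cause was not tested. The other 42 alternatives kept a like size for these counts and the sign for the share. Alternatives of single named genes and of list medians were counted together. Of these, 400 kept the sign and call of a gene or nearly the median of a list. Another 85 were single genes no longer past the threshold. A further 91 moved, as list medians or as uncalled genes that changed sign.

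With the replicate number as a block 76 genes were called. Deviations of equally numbered libraries had a correlation of 0.0225 over 9792 genes, so the numbers were not taken to pair libraries. The share difference with the replicate block was 2.84. Depth limits APC-KO1 most, where a count of 0 in the ISC sum allows a level of up to 39.6 CPM.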
